A study of Mus musculus with 6 samples.

Results

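The Toll-like receptors (TLRs), the NOD-like receptors (NLRs) and the proteins that carry their signals were compared between colon tumors and colon tissue of mice. The members were the protein-coding genes of the deposited table whose symbols begin with Tlr, Nlrc, Nlrp or Nlrx and a number, together with Nod1, Nod2, the Naip genes, Aim2, Pycard, Myd88, Cd14, Ticam1 and Ticam2. Nlrc5 was left out. The rule took 37 of 33573 genes and used no measured value. Both groups came from C57BL/6 mice that carried colorectal tumors induced by AOM/DSS, in which the carcinogen azoxymethane is followed by cycles of the colitis agent dextran sodium sulfate. The groups were 3 tumor libraries and 3 libraries of colon tissue from mice under the same treatment, so the colon tissue had also been exposed to the carcinogen and to colitis. The mice were males that were young adults at the first injection, per the study's methods. The labels give no age. The series describes tumor and colon tissue as paired, but no label says that an equal replicate number (2, 4 or 20) stands for 1 animal, and the reported test is unpaired. The p-values thus cover only the spread among these libraries.

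TLRs and NLRs recognise molecules of microbes and of damaged cells. TLRs sit in the plasma membrane or in endosomes and signal through the adaptors MyD88 and TRIF to NF-kB and interferon regulatory factors, while NOD1 and NOD2 sense fragments of peptidoglycan in the cytosol and signal through RIPK2 to the same factors. Other NLRs, together with the DNA sensor AIM2, assemble inflammasomes with the adaptor ASC (gene Pycard), in which caspase-1 matures IL-1β and IL-18 and cleaves gasdermin D. In the colon these genes are used both by epithelial cells, which face the microbiota, and by macrophages and neutrophils of the mucosa.

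Library totals lay between 17679579 and 20789620 counts in tumor and between 16995481 and 19377759 in colon, and the 37 members together took 0.0873% to 0.115% of the tumor counts and 0.138% to 0.167% of the colon counts. Of 8 Wnt target genes, listed to check the tumor label, 8 were higher in tumor. The make-up of the tissues differed between the groups in other ways. Of 7 tested neutrophil markers 6 were higher in tumor, and their list summed to between 149.8 and 347.3 FPKM (fragment counts scaled to exon length and library total) in tumor and between 11.5 and 75.3 in colon, with Elane at 0 counts in both. Of 12 monocyte and macrophage markers 5 were higher and 1 was lower in tumor, with sums between 495.8 and 675.6 FPKM in tumor and between 274.7 and 365.9 in colon. These macrophage counts rest on single libraries: 7 were higher without colon replicate 2, 2 without tumor replicate 2, tumor replicate 20 or colon replicate 20, and 1 without colon replicate 4, and none was lower without replicate 2 or 20 of either tissue. The pan-leukocyte gene Ptprc had a log2 change of -0.03 (not called). Of 12 epithelial markers 2 were higher and 1 was lower, whereas 5 of 6 colonocyte, 5 of 6 goblet cell, 6 of 6 smooth muscle and 6 of 6 enteric nerve and glia markers were lower in tumor. Without tumor replicate 20, 2 goblet cell markers were lower. Without replicate 2 of either tissue, tumor replicate 20 or colon replicate 4, 1 epithelial marker was higher. Of 7 Paneth cell markers 7 were higher in tumor. Of these, 2 had 0 counts in every colon library, and the list summed to between 1602 and 3094 FPKM in tumor and between 22.4 and 32.5 in colon. Of 7 B cell markers 3 were lower, with a median log2 change of -2.43 and sums between 3.14 and 15.8 FPKM in tumor and between 15.1 and 38.3 in colon. Without tumor replicate 4, 7 B cell markers were lower, whereas 0 were without replicate 2 of either tissue, tumor replicate 20 or colon replicate 4. The part of these shifts in the results on the receptors was not tested, and in bulk tissue fewer cells of a type and less RNA per cell cannot be told apart.

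The receptors moved in both directions. Of the 37 members 33 passed the filter on low counts, and of these 5 were called higher in tumor (Tlr2, Cd14, Tlr13, Nlrp3 and Nlrp12) and 8 lower (Tlr1, Tlr5, Tlr3, Nod1, Naip5, Naip6, Nlrp6 and Pycard) at an adjusted p under 0.05 in the quasi-likelihood test of edgeR, adjusted by Benjamini-Hochberg over 18520 genes. The share called among the members was 39.4%, against 32.2 percent of all genes tested. By direction, 15.2% of the members were higher and 24.2% lower, against 16.1 percent and 16.1 percent of all genes. The share called higher is thus near the background. The median log2 change of the tested members was -0.17, against 0.01 over all genes tested. The counts scaled to library size (CPM) of the 3 tumor libraries lay above all 3 colon libraries for 7 of the 33 members, against 25.3 percent of all genes tested, and below them for 11, against 24.2 percent. Together 18 of the 33 showed no overlap, against 49.6 percent of all genes, so this count is near the background. In 3 of the 7 role groups calls ran in both directions, as the plot of log2 changes shows. With libraries scaled to 12 epithelial genes instead of by TMM (trimmed mean of M values) 5 members were higher and 5 lower, and with limma on log2(FPKM + 0.1) 7 were higher and 6 lower.

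**Figure D1:**
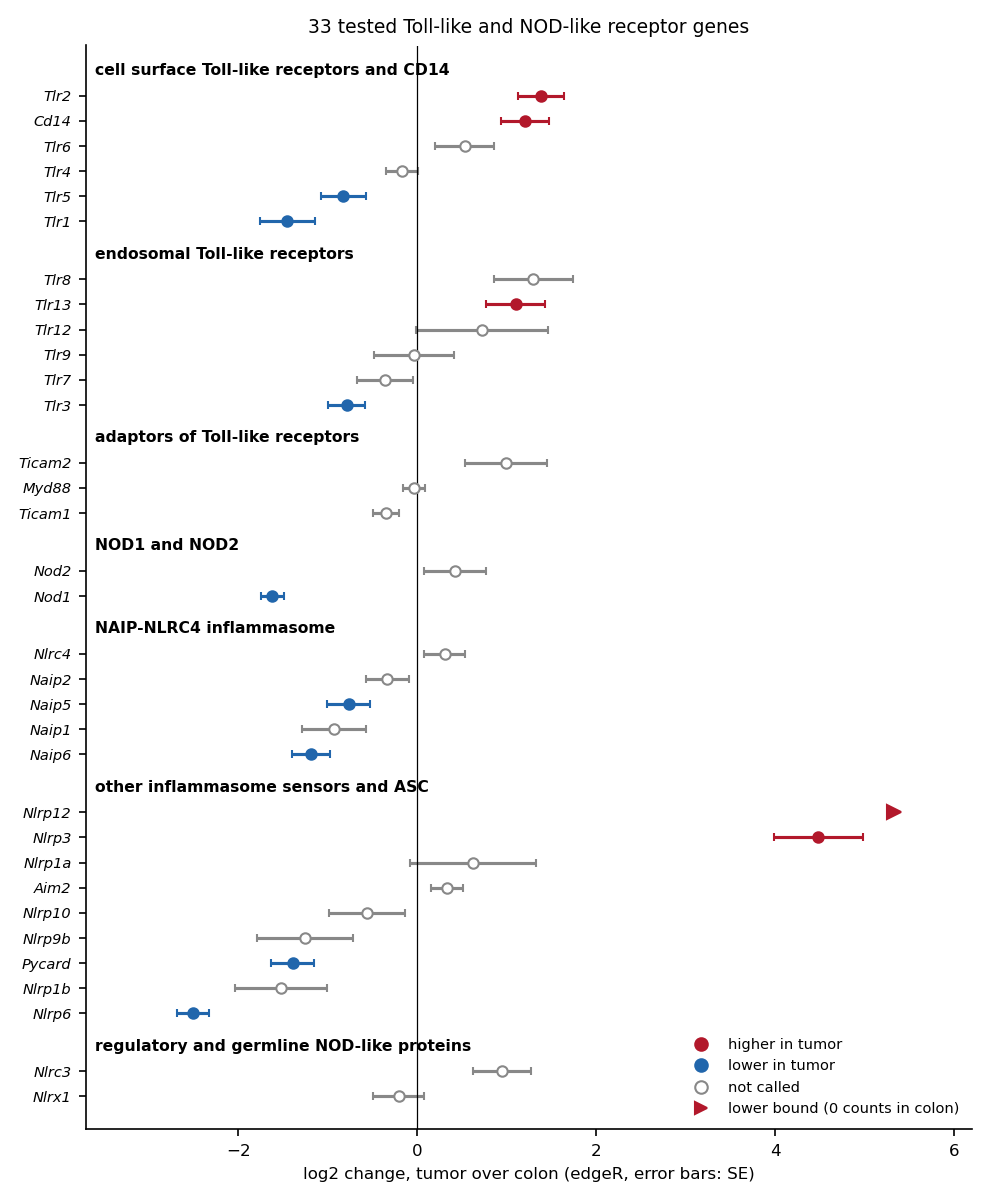
The horizontal axis gives the log2 change of tumor over colon with its standard error for the 33 tested members, grouped by role, with red for genes called higher, blue for genes called lower and open grey for genes not called. Nlrp12, which had 0 counts in colon, is drawn as an approximate lower bound at 5.33, and Nlrp3 (4.48) and Nlrp6 (-2.51) stand at the ends of the fitted values of members counted in both groups.

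Among the TLRs of the cell surface, Tlr2 and Cd14 rose in tumor, and Tlr1 and Tlr5 fell. TLR2 recognises bacterial lipoproteins as a dimer with TLR1 or TLR6. Tlr2 had 43.8, 52.5 and 36.4 CPM in tumor replicates 2, 4 and 20, against 11.2, 21.4 and 18.3 CPM in colon. Its lowest tumor library was above its highest colon library, and its log2 change was 1.38 ± 0.26 (SE, adjusted p = 0.00754 by edgeR). Tlr1, its partner for triacylated lipoproteins, went the other way, with 15.3, 27.9 and 37.7 CPM in tumor and 86.5, 73.5 and 61.2 CPM in colon. All 3 tumor libraries lay below the colon libraries, tumor replicate 2 the lowest, and the log2 change was -1.45 ± 0.31 (adjusted p = 0.0127). Tlr6, its partner for diacylated lipoproteins, had 4.06, 2.93 and 2.10 CPM in tumor and 1.91, 2.09 and 2.31 CPM in colon. These ranges overlapped, and the log2 change of 0.53 ± 0.33 was not called (adjusted p = 0.257).

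Tlr1 and Tlr6 lie next to each other on chromosome 5 (GRCm39, 65082022 to 65090906 and 65109374 to 65117440, both on the minus strand) and are close in sequence. Of all 100-base windows of the longest Tlr1 transcript, 8.85% also occurred in a transcript of another gene, which was Tlr6, and over 1315 aligned bases the pair shared 89.6% of bases. Their values could therefore be split unevenly where fragments fell in the shared stretch. Tlr2 had no such window.

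CD14 hands lipopolysaccharide and lipoproteins to TLR4 and TLR2. Cd14 had 140.0, 75.2 and 129.4 CPM in tumor and 62.6, 48.3 and 39.1 CPM in colon. The groups did not overlap, and the log2 change was 1.20 ± 0.27 (adjusted p = 0.0144 by edgeR). The call was lost without tumor replicate 20 and without colon replicate 4, where the adjusted p rose to at most 0.0551. Tlr4, the receptor of lipopolysaccharide itself, was not called, with 23.6, 32.4 and 22.6 CPM in tumor, 33.3, 28.8 and 26.3 CPM in colon and a log2 change of -0.17 ± 0.18 (adjusted p = 0.511). Its tumor and colon libraries were interleaved.

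Tlr5, the receptor of flagellin, was low in every library, with 2.74, 2.61 and 2.49 CPM in tumor and 3.82, 4.60 and 5.49 CPM in colon. The tumor values lay close together below the colon values, and the log2 change was -0.83 ± 0.26 (adjusted p = 0.0446 by edgeR). This call was the least stable of the 13, lost in 10 of 17 alternatives, among them the fit with the replicate number as a block (adjusted p = 0.0884).

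The endosomal TLRs recognise nucleic acids and, in the mouse, also profilin of protozoa. Tlr13, which senses bacterial ribosomal RNA in the mouse, rose to 9.19, 5.59 and 6.87 CPM in tumor, against 4.14, 2.15 and 3.79 CPM in colon. The groups were separate, with a log2 change of 1.10 ± 0.33 (adjusted p = 0.0413 by edgeR), and the call was lost in 5 of the 6 fits that left out 1 library. Tlr3, the receptor of double-stranded RNA, fell to 17.2, 25.6 and 21.9 CPM in tumor, against 33.7, 32.2 and 46.0 CPM in colon. Every tumor library was below every colon library, and the log2 change was -0.79 ± 0.20 (adjusted p = 0.0248). That call was lost with scaling to the epithelial genes and without tumor replicate 2, tumor replicate 20 or colon replicate 20.

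Tlr8 had 5.33, 2.75 and 2.77 CPM in tumor and 2.18, 1.17 and 1.04 CPM in colon. The groups did not overlap, yet the log2 change of 1.30 ± 0.44 missed the threshold (adjusted p = 0.0582 by edgeR). With the replicate block it was called (adjusted p = 0.0301), as it was by DESeq2, by limma on log2(FPKM + 0.1) and without colon replicate 2. Tlr7, its neighbour on the X chromosome and a receptor of single-stranded RNA, was not called (log2 change -0.36 ± 0.32, adjusted p = 0.422), and neither was the receptor of unmethylated DNA, Tlr9 (-0.04 ± 0.45, adjusted p = 0.958). Tlr12, which binds profilin in the mouse, spread widely, with 0.977, 10.8 and 4.32 CPM in tumor and 2.13, 3.62 and 4.01 CPM in colon. Tumor replicate 4 alone was far above the rest. Its log2 change was 0.72 ± 0.74 (adjusted p = 0.493), and without tumor replicate 4 it was -0.30. Tlr11, its partner, was not tested, with counts of 0, 7 and 0 in tumor and of 9, 8 and 9 in colon.

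None of the 3 TLR adaptors was called at an adjusted p under 0.05. Myd88, the adaptor of all TLRs except TLR3, was among the steadiest members, with 40.4, 43.8 and 42.1 CPM in tumor and 49.9, 38.6 and 41.0 CPM in colon. The 2 groups interleaved, with a log2 change of -0.04 ± 0.13 (adjusted p = 0.851 by edgeR). Ticam1, which encodes the TLR3 and TLR4 adaptor TRIF, had 28.2, 29.6 and 28.7 CPM in tumor and 29.8, 40.2 and 40.4 CPM in colon. Its tumor values lay just below the colon values without a call (log2 change -0.35 ± 0.15, adjusted p = 0.109). Ticam2, which bridges TLR4 and TRIF, had between 34 and 72 counts in tumor and between 13 and 30 in colon (log2 change 0.99 ± 0.46, adjusted p = 0.143). The gene shares exons with Tmed7 on the same strand, which held between 2124 and 3002 counts in every library, and 18.002% of the 100-base windows of its longest transcript occurred in Tmed7. Myd88 overlaps Acaa1a, a gene of the opposite strand with between 1389 and 2136 counts. The sources used here do not state whether the counting used strand. Other members overlap genes of the opposite strand as well. Tlr3 overlaps Gm45542 (13 to 41 counts a library), Nlrx1 overlaps Gm10686 (97 to 253) and Naip1 overlaps Rpl31-ps13 (1 to 13). Aim2 overlaps Cadm3, with 23 to 62 counts in tumor and 275 to 291 in colon. Nlrp12 overlaps microRNA genes with at most 4 counts each in a library.

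The cytosolic peptidoglycan receptors parted. Nod1 had 12.1, 13.6 and 13.6 CPM in tumor and 42.4, 37.1 and 41.4 CPM in colon. Both groups were tight and far apart, and the log2 change was -1.62 ± 0.13 (adjusted p = 0.000353 by edgeR), a level 3.08-fold lower in tumor. Over the 17 alternatives its log2 change stayed between -1.68 and -1.22 and was called in each. Nod2 had 8.06, 6.92 and 7.42 CPM in tumor and 2.89, 6.75 and 7.09 CPM in colon. Only colon replicate 2 stood apart, and the log2 change of 0.42 ± 0.35 was not called (adjusted p = 0.39). On the FPKM scale the ratio of Nod2 to Nod1 was 0.674, 0.517 and 0.554 in tumor, against 0.0690, 0.184 and 0.174 in colon. The 2 receptors summed to 4.21, 4.25 and 4.24 FPKM in tumor and to 8.71, 8.30 and 8.98 FPKM in colon.

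**Figure D2:**
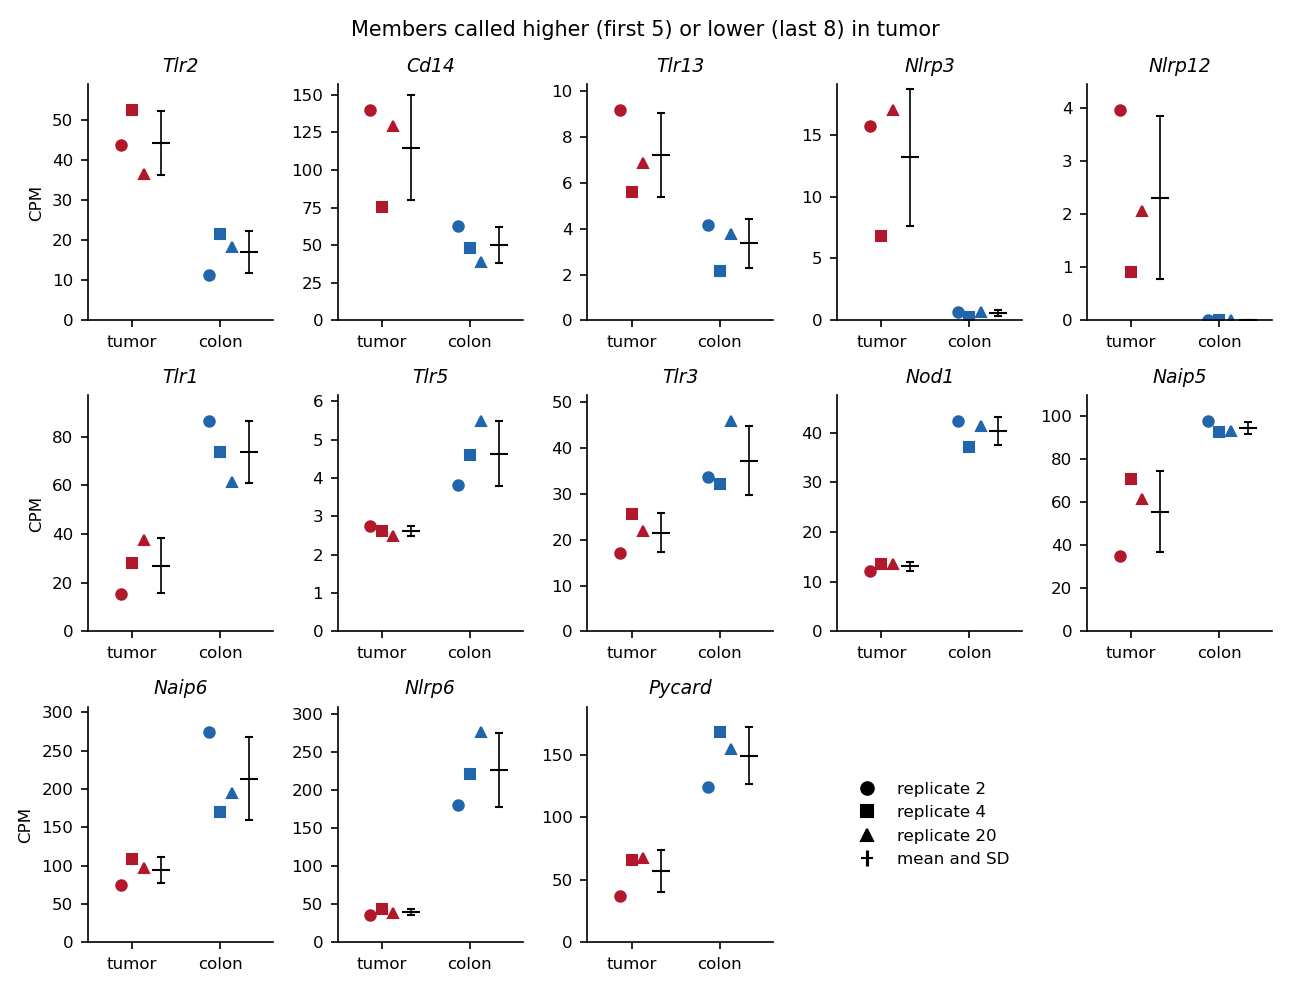
Each panel gives the CPM of 1 gene in the 3 tumor (red) and 3 colon (blue) libraries on a linear axis from 0, with the mean and SD in black and marker shapes for replicates 2, 4 and 20. The 13 genes were picked by their calls, so the lack of overlap in every panel is no further support for the calls. Over all genes tested 49.6 percent showed no overlap. Nod1 shows tumor values of 12.1 to 13.6 against colon values of 37.1 to 42.4.

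The NAIP proteins bind flagellin and the needle and rod proteins of bacterial secretion systems and then recruit NLRC4 into an inflammasome. Naip6 had 75.5, 109 and 96.9 CPM in tumor and 275, 171 and 195 CPM in colon. All tumor libraries were below the colon libraries, and the log2 change was -1.19 ± 0.21 (adjusted p = 0.00646 by edgeR). Naip5, which like Naip6 recognises flagellin, had 34.9, 70.8 and 61.4 CPM in tumor and 98.0, 92.8 and 93.2 CPM in colon. The groups were again separate, with tumor replicate 2 lowest, and its log2 change was -0.76 ± 0.24 (adjusted p = 0.0472). The Naip5 call was lost in 8 of 17 alternatives, the replicate block among them (adjusted p = 0.0531).

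Naip1, a sensor of the needle protein, had 55.4, 140.4 and 117 CPM in tumor and 257, 195 and 143 CPM in colon. Tumor replicate 4 and colon replicate 20 nearly met, and the log2 change of -0.93 ± 0.35 was not called (adjusted p = 0.0849 by edgeR). Naip2, a sensor of the rod protein, was not called either (log2 change -0.34 ± 0.24, adjusted p = 0.318). Nlrc4 had 44.0, 54.2 and 66.3 CPM in tumor and 58.1, 41.8 and 33.2 CPM in colon. The groups overlapped, and the log2 change was 0.30 ± 0.23 (adjusted p = 0.357). The ratio of Nlrc4 to Naip1 on the FPKM scale was 0.915, 0.444 and 0.654 in tumor, against 0.260, 0.246 and 0.267 in colon.

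Values of single Naip genes are uncertain. The 4 genes lie side by side on the minus strand of chromosome 13 (GRCm39, from 100280571 for Naip2 to 100589377 for Naip1), with the pseudogenes Naip3 and Naip3-ps1 between them. Over 4398 aligned bases Naip5 and Naip6 were 96.9% identical. The other pairs lay between 89.4% and 91.4%, and 4.55% to 16.2% of the 100-base windows of these genes occurred in another gene. Summing the 4 genes before the fit, an alternative chosen after the data had been seen, gave 219, 424 and 369 CPM in tumor and 747, 556 and 533 CPM in colon. The log2 change of the sum was -0.86 ± 0.26 (adjusted p = 0.0391 by edgeR). Its call was lost without tumor replicate 20 and without each colon replicate in turn, with a highest adjusted p of 0.0978 without colon replicate 2.

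Among members counted in both groups, the largest fitted changes of both signs were those of inflammasome sensors. Nlrp3, which forms an inflammasome on loss of potassium and other signs of damage, had 15.7, 6.79 and 17.0 CPM in tumor and 0.709, 0.307 and 0.714 CPM in colon. These are 321, 148 and 307 counts in tumor and 13, 5 and 13 in colon. The lowest tumor library was far above every colon library, and the log2 change was 4.48 ± 0.49 (adjusted p = 0.00111 by edgeR), a 22.4-fold higher level in tumor. Within the replicate numbers 2, 4 and 20, which no label ties to an animal, the log2 ratio of tumor to colon was 4.47, 4.47 and 4.57. On the compressed log2(FPKM + 1) scale the change was 1.89, since the colon values are far under 1.

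Nlrp6, which is made in the intestinal epithelium and is known from mouse work on mucus secretion and defence against viruses, moved the opposite way. It had 36.2, 43.8 and 39.0 CPM in tumor and 179.7, 221 and 276 CPM in colon. The groups lay far apart, and the log2 change was -2.51 ± 0.18 (adjusted p = 0.000289 by edgeR), a level 5.69-fold lower in tumor. In colon it was the most abundant member on the FPKM scale, with 42.4 ± 8.31 FPKM (SD, n = 3), against 8.13 ± 0.816 FPKM in tumor (n = 3). The ratio of Nlrp6 to Nlrp3 in FPKM was 1.84, 5.16 and 1.83 in tumor and 202, 575 and 309 in colon, which are descriptions with no test.

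Pycard, the gene of the adaptor ASC that most inflammasomes share, had 37.3, 65.5 and 67.1 CPM in tumor and 124, 168 and 155 CPM in colon. Every tumor library was below every colon library, tumor replicate 2 the lowest, and the log2 change was -1.39 ± 0.24 (adjusted p = 0.00567 by edgeR). Pycard overlaps by 599 bases an unconfirmed gene model of the opposite strand, Gm45205. This model fell as well (log2 change -1.27 ± 0.28, adjusted p = 0.0147), with between 468 and 1069 counts in tumor and between 1370 and 1794 in colon, and if strand was ignored in counting their fragments cannot be separated.

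Nlrp12, known as an inhibitor of NF-kB signalling in myeloid cells, was counted 81, 20 and 37 times in the tumor libraries 2, 4 and 20 and 0 times in each colon library. With the colon group set at a floor of 3 counts in all, the approximate lower bound of the fold was 40.3, and 25.2 without tumor replicate 2. The floor allows for counting error in a count of 0 and is no strict limit, and the tumor counts were taken as exact. The gene was called (adjusted p = 0.00806 by edgeR), and the stricter filter of 1 CPM in 3 libraries left it out. As with the other members that rose, neutrophil markers were higher in the same group, with list sums of 347.3, 149.8 and 232.2 FPKM in tumor replicates 2, 4 and 20, against 75.3, 26.5 and 11.5 FPKM in colon. Nlrp12 was likewise highest in tumor replicate 2 and lowest in tumor replicate 4. Of the tested markers, S100a8, S100a9, Cxcr2, Csf3r and Retnlg had this order too. Ltf and Ly6g, the latter not called, were highest in tumor replicate 20, and Ly6g was lowest in tumor replicate 2. Of the macrophage list, Cd68, Itgam and Mrc1 had the order of Nlrp12 as well and the others did not. Of the other members that rose, Cd14 and Tlr13 had it, whereas Tlr2 was highest in tumor replicate 4 and Nlrp3 in tumor replicate 20. This order was not worked out over all genes tested, so it cannot be read as particular to neutrophil genes. The part of neutrophils in the Nlrp12 values was not tested.

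Of the remaining sensors none was called. Nlrp1b, the murine sensor of anthrax lethal factor, had 2.05, 10.04 and 6.31 CPM in tumor and 22.4, 17.2 and 13.3 CPM in colon. The groups did not overlap, yet tumor replicate 2 was far below the other tumors and the log2 change of -1.52 ± 0.52 missed the threshold (adjusted p = 0.0596 by edgeR). It was called in 6 of the 17 alternatives. Nlrp9b, described in the mouse as an epithelial sensor of rotavirus, had 7.52, 28.0 and 20.8 CPM in tumor and 63.7, 50.04 and 20.8 CPM in colon. Colon replicate 20 fell within the tumor range, and the log2 change was -1.25 ± 0.54 (adjusted p = 0.118). Aim2, the sensor of cytosolic DNA, had 76.1, 73.0 and 85.5 CPM in tumor and 79.2, 57.3 and 49.5 CPM in colon. Colon replicate 2 lay within the tumor range, and the log2 change was 0.33 ± 0.18 (adjusted p = 0.197). Nlrp10 (-0.56 ± 0.42) and Nlrp1a (0.62 ± 0.70, from 7 to 25 counts in tumor and 3 to 16 in colon) were not called. Nlrp1a and Nlrp1b are paralogs with 85.8% identity over 3515 aligned bases.

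The regulatory and germline NLRs held no call. Nlrc3, a negative regulator of innate signalling, had 4.74, 6.28 and 5.15 CPM in tumor and 3.87, 2.58 and 1.92 CPM in colon. The groups did not overlap, and the log2 change of 0.95 ± 0.32 just missed the threshold (adjusted p = 0.0595 by edgeR), with a call in 5 of 17 alternatives. Nlrx1, an NLR of mitochondria, had a log2 change of -0.21 ± 0.29 (adjusted p = 0.618). Nlrp2, Nlrp4c and Nlrp4e, of a branch known from oocytes and early embryos, were not tested. Nlrp2 and Nlrp4e had 0 counts in all libraries and Nlrp4c had 3 counts in tumor replicate 20 and 0 elsewhere.

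The promoters of Nlrp3 and Nlrp6 are shown because, among the members with counts in both groups, these had the largest fitted log2 changes of each sign, and those of Pycard, Tlr1 and Tlr3 because they are called members in whose promoters a searched motif was found. Each runs from 250 bases before to 50 bases after an annotated start (RefSeq, GRCm38.p6, a build other than that of the counts), 5′ to 3′, with the match in capitals. There were 38 such windows for 32 of the 37 members. Windows of Tlr4, Tlr7, Nlrp10, Ticam2 and the called member Cd14 were not searched.
Nlrp3 (chr11:59541319-59541618, + strand): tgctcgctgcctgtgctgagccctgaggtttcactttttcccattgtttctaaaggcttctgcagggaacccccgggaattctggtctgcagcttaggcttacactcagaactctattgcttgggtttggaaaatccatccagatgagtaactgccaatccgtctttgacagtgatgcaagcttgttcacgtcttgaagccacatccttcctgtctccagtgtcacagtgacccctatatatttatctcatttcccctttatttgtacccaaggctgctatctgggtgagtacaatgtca
Nlrp6 (chr7:140920652-140920951, + strand): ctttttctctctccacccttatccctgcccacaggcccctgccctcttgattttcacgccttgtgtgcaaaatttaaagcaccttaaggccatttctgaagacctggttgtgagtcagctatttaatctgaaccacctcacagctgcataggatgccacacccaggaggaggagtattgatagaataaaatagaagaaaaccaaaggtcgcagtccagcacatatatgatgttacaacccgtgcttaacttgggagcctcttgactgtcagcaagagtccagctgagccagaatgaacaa
Pycard (chr7:127993818-127994117, - strand): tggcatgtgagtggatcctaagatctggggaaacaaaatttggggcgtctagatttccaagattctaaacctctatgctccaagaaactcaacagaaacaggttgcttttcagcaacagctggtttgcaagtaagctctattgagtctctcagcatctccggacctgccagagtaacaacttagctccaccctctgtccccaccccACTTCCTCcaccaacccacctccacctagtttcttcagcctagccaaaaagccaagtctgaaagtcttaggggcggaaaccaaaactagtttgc
Tlr1 (chr5:64933509-64933808, - strand): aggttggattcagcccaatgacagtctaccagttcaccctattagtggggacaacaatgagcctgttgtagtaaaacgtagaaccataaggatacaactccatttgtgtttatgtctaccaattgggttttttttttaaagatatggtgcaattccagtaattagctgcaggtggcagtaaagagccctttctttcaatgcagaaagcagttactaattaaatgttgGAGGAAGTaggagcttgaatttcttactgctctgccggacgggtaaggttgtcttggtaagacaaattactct
Tlr3 (chr8:45410331-45410630, - strand): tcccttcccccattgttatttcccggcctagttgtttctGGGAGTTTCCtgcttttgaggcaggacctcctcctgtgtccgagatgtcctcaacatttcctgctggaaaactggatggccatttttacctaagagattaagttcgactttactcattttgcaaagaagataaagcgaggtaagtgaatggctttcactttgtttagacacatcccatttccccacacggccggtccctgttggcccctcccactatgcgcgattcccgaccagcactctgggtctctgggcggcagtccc

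The 6 motifs searched, on both strands, were GAGGAAGT (PU.1, a factor of myeloid and B cells), GGG followed by any 2 bases and TTTCC (NF-kB), TTTC followed by any 2 bases and TTTC (the interferon-stimulated response element), CAAAGTCCA (HNF4), CAATAAA (CDX) and ATCAAAG (TCF/LEF). The PU.1 letters occurred in 8 of the 38 member windows (21.1%), against 3.2% of 32851 promoters of the same length. They stand at -44 from the start in Pycard, on the opposite strand, and at -23 in the Tlr1 window shown, both genes being lower in tumor. A further Tlr1 window, not shown, held none of the motifs. The other members with them were Aim2, Nlrp1a, Nlrp1b and Tlr9, which were not called, and Nlrp4c and Tlr11, which were not tested. The Nlrp1a and Nlrp1b windows that hold them are similar in sequence, so these matches are not independent. The NF-kB letters occurred in 1 member window, that of Tlr3 at -211, against 1.63% of promoters. The interferon-stimulated response element occurred in 3 (7.89%, against 3.44% of promoters), those of Myd88, Tlr6 and Tlr11. The CDX letters occurred in 1 (2.63%, against 4.6%), that of Tlr8. Of these genes Tlr11 was not tested and the others were not called. The HNF4 and TCF/LEF letters occurred in 0. Neither the Nlrp3 window shown, nor a further Nlrp3 window not shown, nor the Nlrp6 window held any of the 6 motifs. A match is a description of the letters in this window and of nothing else. The search took only these exact letters, so a window without a match can still hold another form of a site.

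Summed by role on the FPKM scale, the surface TLRs with CD14 came to 112, 80.05 and 105 FPKM in tumor and 71.2, 60.9 and 50.1 FPKM in colon. The inflammasome sensors other than NLRC4, with ASC, came to 48.9, 61.9 and 63.6 FPKM in tumor and 111.3, 117 and 111.1 FPKM in colon. The first sum was higher in every tumor library than in any colon library and the second lower. In colon the second rested largely on Nlrp6 (mean 42.4 FPKM) and Pycard (37.5 FPKM), which had 8.13 and 15.5 FPKM in tumor. It was not worked out without these 2 called genes, so it does not speak for the other sensors. Without Cd14 the surface TLRs came to 26.3, 34.5 and 29.1 FPKM in tumor and 35.9, 34.2 and 28.9 FPKM in colon, so that the groups overlapped. For the NAIPs with NLRC4 the sums were 50.4, 91.8 and 82.0 FPKM in tumor and 138, 102 and 94.1 FPKM in colon, and tumor replicate 4 came within a few FPKM of colon replicate 20. The adaptors came to between 26.8 and 28.5 FPKM in tumor and between 27.5 and 28.9 in colon. The ratio of Tlr2 to Tlr1 in FPKM was 3.17, 2.09 and 1.07 in tumor, above 1 in each library, and 0.144, 0.324 and 0.333 in colon. The sums and ratios were not tested.

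**Figure D3:**
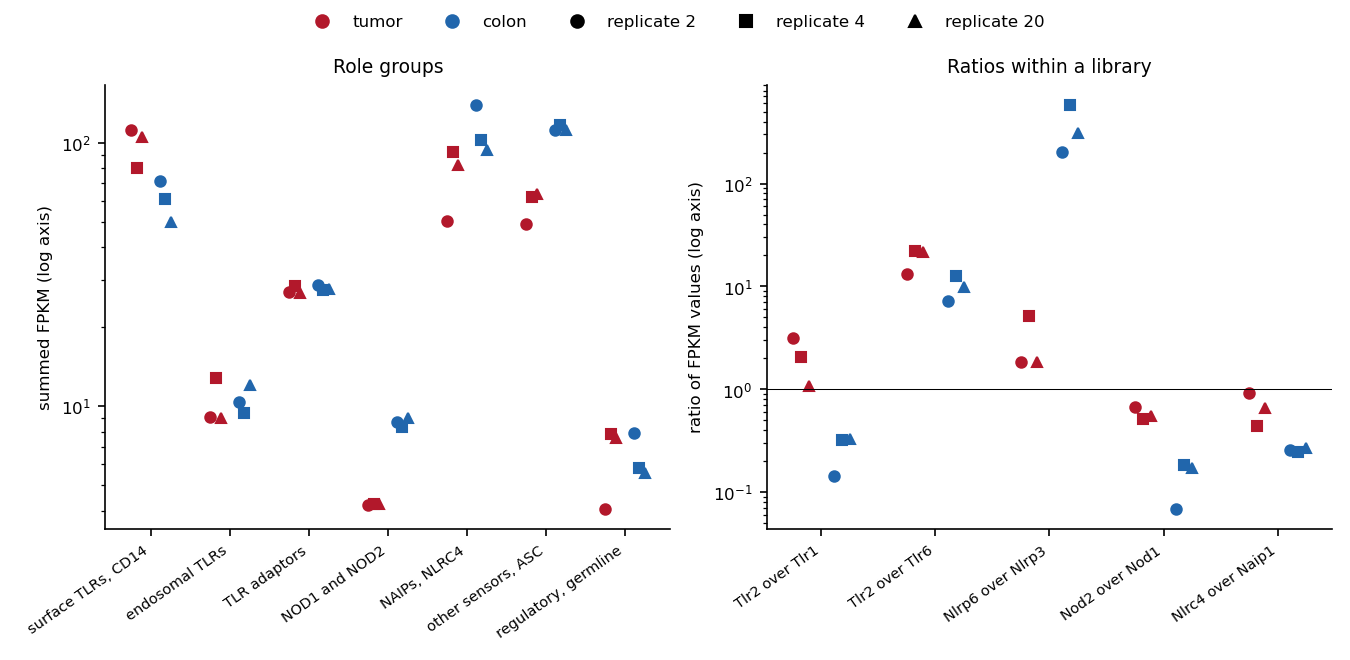
The left panel gives the summed FPKM of each role group and the right panel the ratio of 2 members' FPKM within a library, both on log axes, for 3 tumor (red) and 3 colon (blue) libraries with a marker shape for each replicate number. The ratio of Nlrp6 to Nlrp3 lies between 1.83 and 5.16 in tumor and between 202 and 575 in colon, while the sums of the TLR adaptors overlap.

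The order of the members by level differed between the tissues. In tumor Cd14 stood first, with 69.0 ± 20.8 FPKM (SD, n = 3), followed by Aim2 (23.2 ± 1.57 FPKM) and Naip1 (19.6 ± 8.21 FPKM). In colon Nlrp6 (42.4 ± 8.31 FPKM) was followed by Pycard (37.5 ± 5.36 FPKM), Naip1 (34.5 ± 10.5 FPKM), Naip6 (30.0 ± 8.12 FPKM) and Cd14 (27.7 ± 7.08 FPKM). These colon neighbours lay within 1 SD of each other, as did Aim2 and Naip1 in tumor. Tumor replicate 2 was the lowest tumor library for 18 of the 33 tested members, and colon replicate 2 the highest colon library for 22 of 33. This order was not worked out over all genes tested, so it cannot be read as particular to the members.

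Genes that act with the receptors, and target genes of TLR signalling, were set beside them in 7 lists. Of 87 genes 82 were tested, 26 were higher in tumor (31.7%) and 6 lower (7.32%), against 16.1 percent of all genes in each direction, with a median log2 change of 0.24. The list of target genes alone held 11 of the 26 higher calls, so the share called higher was smaller among the genes that act with the receptors. The signalling genes of the MyD88 and TRIF routes held 5 higher and 0 lower of 17. Among these, Pik3ap1, an adaptor of PI3K in TLR signalling, stood at 52.1 ± 17.4 CPM in tumor, against 8.58 ± 0.251 CPM in colon (SD, n = 3 each, log2 change 2.60 ± 0.24, adjusted p = 0.000626 by edgeR). Ikbkb, the kinase of the NF-kB inhibitor, and Traf6, a ubiquitin ligase of the route, rose by log2 changes of 0.65 ± 0.11 and 0.53 ± 0.11. Tab2 (0.10 ± 0.10) and Irak1 (0.35 ± 0.11, adjusted p = 0.0519) were not called. Of 8 NF-kB and IRF factors 4 were higher, among them Nfkb1 (0.64 ± 0.10), Rela (0.81 ± 0.13) and Rel (1.29 ± 0.28), while Irf3 (0.00 ± 0.09) and Irf7 (-1.30 ± 0.54, adjusted p = 0.107) were not called. Of the 8 TLR accessory proteins and chaperones none was called by edgeR, including Hsp90b1 (0.14 ± 0.17) and Unc93b1 (-0.20 ± 0.22), which bring TLRs to their compartments.

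Inhibitors of the routes held 2 higher and 2 lower of 12. These counts are near the background of 16.1 percent of all genes tested in each direction. Il1rl1, the receptor of IL-33 and in a membrane form a brake on TLR signalling, averaged 232 ± 122 CPM in tumor, against 7.55 ± 0.930 CPM in colon (log2 change 4.94 ± 0.49, adjusted p = 0.00073 by edgeR). Tnip3 rose (0.97 ± 0.25), and Tnip1 (-0.46 ± 0.12) and Sarm1 (-2.24 ± 0.71, 15 counts in tumor and 64 in colon) fell, while Nfkbia was not called (0.53 ± 0.19, adjusted p = 0.0748). Of 10 genes of NOD1 and NOD2 signalling 2 were higher, Slc15a3, a carrier of muramyl dipeptide (2.54 ± 0.25), and Card9 (0.97 ± 0.26). Erbin, which binds NOD2, was lower (-0.58 ± 0.15), and Birc3 was not called (0.00 ± 0.10). In a list of 10 genes these counts too are near the background.

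The inflammasome effectors and regulators held 2 higher and 3 lower of 12. Against 16.1 percent of all genes tested in each direction, such counts in so short a list are near the background. The cytokine Il1b averaged 118 ± 70.3 CPM in tumor, against 1.98 ± 0.870 CPM in colon (log2 change 5.89 ± 0.67, adjusted p = 0.00127 by edgeR), and Il1a rose as well (3.94 ± 0.47). Casp1, the protease that matures IL-1β, averaged 46.1 ± 19.2 CPM in tumor, against 89.4 ± 13.5 CPM in colon (log2 change -0.95 ± 0.30, adjusted p = 0.0495). P2rx7, the ATP receptor upstream of NLRP3 (-1.06 ± 0.17), and Txnip, a partner of NLRP3 (-1.39 ± 0.29), were lower too, and Gsdmd was not called (0.23 ± 0.19). Of 15 tested target genes of TLR signalling 11 were higher and 0 lower, with a median log2 change of 2.97. Cxcl2 averaged 57.9 ± 37.5 CPM in tumor, against 0.112 ± 0.0517 CPM in colon, where 6 counts were found over the 3 libraries. Cxcl1, Saa3 and Lcn2 rose by log2 changes of 6.06 ± 0.63, 6.05 ± 0.55 and 5.05 ± 0.57. Neutrophil markers were higher in the same tumor libraries, as given above, and their part in these values was not tested.

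**Figure D4:**
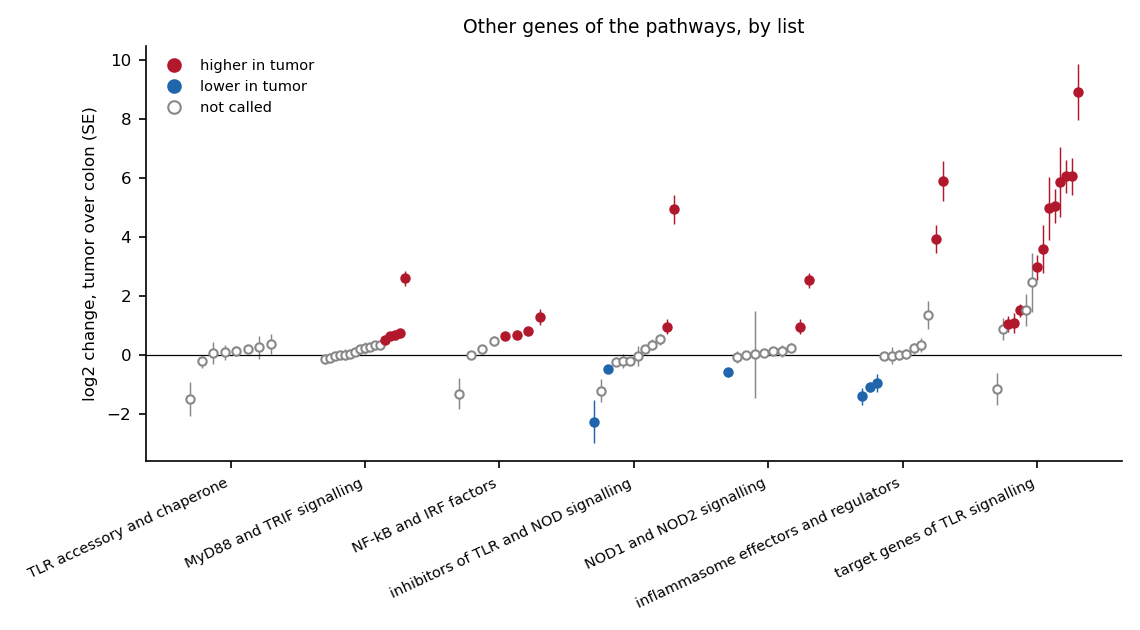
The vertical axis gives the log2 change of tumor over colon with its SE for each of the 82 tested genes of the 7 lists, ordered by value within a list, with red for higher, blue for lower and open grey for not called. Higher calls number 11 of 15 in the list of TLR target genes and 0 of 8 among the accessory proteins.

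Over 17 alternative settings, 8 of the 13 called members were called in every fit that tested them, namely Tlr2, Nlrp3 and Nlrp12 among those higher and Tlr1, Nod1, Naip6, Nlrp6 and Pycard among those lower. The calls of Cd14, Tlr13, Tlr3, Tlr5 and Naip5 were lost in 2, 5, 4, 10 and 8 alternatives. Of the 20 members not called, 7 gained a call in at least 1 alternative.

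**Figure D5:**
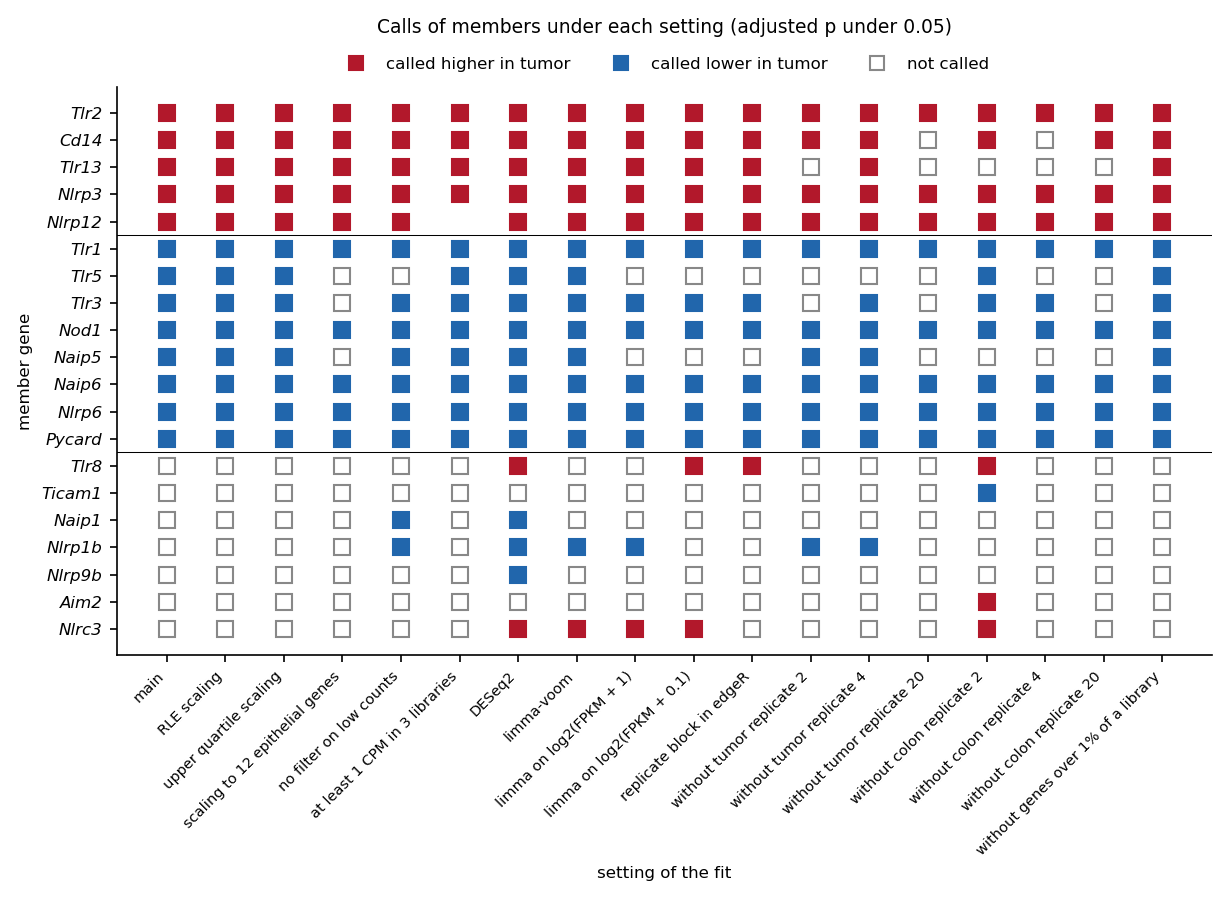
Columns are the fit as reported (main) and 17 alternative settings, rows are the 13 called members and the 7 that gained a call elsewhere, and a filled square is a call at an adjusted p under 0.05, red for higher and blue for lower in tumor. A blank cell marks Nlrp12 under the filter of 1 CPM in 3 libraries, and the rows of Tlr2, Nlrp3, Tlr1, Nod1, Naip6, Nlrp6 and Pycard are filled throughout.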

How the data were processed

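RNA-seq libraries of 3 tumors and 3 colon tissues were made with a stranded mRNA kit, per the labels. The tools cutadapt and HISAT and the build GRCm39 are named in the submitters' processing notes. Versions, the counting tool and its strand setting: not given in the sources used here. A deposited table lists 33573 genes with raw fragment counts and FPKM values for every library. For FPKM the authors divided counts by exon length and library total. Exon lengths recovered from both were whole within 0.01 bases for 100% of the 86659 values with at least 50 counts. Totals are in the report, and counting floors (3 counts) cover counting error only.

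The deposited counts entered the quasi-likelihood test of edgeR 4.0.16 under R 4.3.3 (TMM scaling, filterByExpr), with Benjamini-Hochberg adjustment over 18520 genes and a threshold of 0.05. No block was used, as the study compared the groups unpaired. CPM values use TMM library sizes. SE is the log2 change over the root of F and is approximate. Levels of different genes were compared on FPKM only. On simulated data (18190 genes), 4% of genes changed 1.5-fold, 32% changed 2-fold, 90% changed 4-fold and 84% changed 8-fold were recovered, with 5 false calls. The simulation changed a far smaller share of genes than the 32.2 percent called in the data and drew dispersions from their trend. The adjustment depends on that share, so these rates check that the fit runs and do not give its sensitivity here.

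Equal numbers were used as pairs in the replicate block, an alternative, and in the log2 ratios given for Nlrp3. The series describes the tissues as paired, but no label ties a number to an animal. Around their group means, libraries sharing number 2, 4 or 20 correlated at 0.19, 0.12 and 0.02, and the highest correlation with another number was -0.09, 0.12 and 0.02.

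Alternatives were RLE, upper quartile and epithelial scaling, 2 filters, leaving out the 5 genes over 1% of a library, DESeq2 1.42.0, limma 3.58.1 (voom, log2(FPKM + 1), log2(FPKM + 0.1)), the replicate block and leaving out each library. Summed Naip counts, the surface sum without Cd14 and marker counts without each library were added after the data had been seen. Every member is named. Of each pathway list the 3 called genes of lowest adjusted p per direction and the 2 of highest mean FPKM are named. The members and lists were chosen with earlier results of these data known. Transcripts were compared in GENCODE M21 (longest protein-coding transcript, local alignment), and promoters came from RefSeq (GRCm38.p6).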

Additional observations from a re-analysis of the deposited data

How the results depend on the processing

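With 3 libraries a group, counts of calls moved when 1 was left out. Of the 37 members, between 3 and 7 were called higher and between 5 and 8 lower in the 6 fits that left out a library, against 5 and 8 with all libraries. Without tumor replicate 20 there were 3 and 5, without colon replicate 4 there were 3 and 6, and without colon replicate 20 there were 4 and 5. Scaling to 12 epithelial genes gave 5 higher and 5 lower, DESeq2 gave 7 and 11, limma-voom 6 and 9, limma on log2(FPKM + 1) 6 and 7, and limma on log2(FPKM + 0.1) 7 and 6. On these FPKM scales the median log2 change of all genes shifted to 0.09 and 0.12. With the replicate block in edgeR 6 were higher and 6 lower: Tlr8 gained a call and Tlr5 and Naip5 lost theirs, and it changed no other call of a member. The cause of these shifts was not tested.

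Directions reversed for 4 members, none of them called. Tlr9 had log2 changes of 0.029 with epithelial scaling, 0.019 and 0.017 on the FPKM scales (pseudocounts 1 and 0.1) and between -0.50 and 0.24 when a library was left out. Myd88 had 0.086 and 0.091 on the FPKM scales and between -0.11 and 0.076 without a library, Tlr12 between -0.30 and 1.22, and Nlrx1 between -0.37 and 0.072. Of the pathway genes 6 were lower in the reported fit, against 2 and 2 on the FPKM scales and between 2 and 7 without a library (2 without tumor replicate 20 and 2 without colon replicate 4). Counts of single pathway lists stayed within 1.5 times of the reported value in 206 of 238 comparisons with alternative fits. A count of 0 that stayed 0 entered as unchanged, and lists with no call in a direction are among these comparisons. The number thus says less about the lists that hold calls. Of the 37 members 4 were under the filter on low counts. Nlrp1a, with 3 to 25 counts a library, had a log2 change with an SE of 0.70, and Ticam2, with 13 to 72 counts, one with an SE of 0.46.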
